A study of Mus musculus with 2 samples.

Results

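The 7 metabotropic glutamate receptor genes studied here (Grm2, Grm3, Grm4, Grm5, Grm6, Grm7 and Grm8) were examined for open chromatin in mouse hippocampus, out of 21866 protein-coding genes of the GENCODE M21 annotation. They were chosen by name, not by any measured value. Each gene was read over its body and 10 kb on each side, 2839.61 kb in all. The assay was DNase-seq, in which stretches that the enzyme DNase I cuts readily, as nucleosomes leave them bare, are called as peaks and short protected stretches inside them as footprints. The tissue came from female B6CASTF1/J mice 2 months old, the F1 offspring of the C57BL/6J and CAST/EiJ strains. One label calls it a layer of hippocampus and another hippocampus. There was 1 group of 2 libraries, replicates 1 and 2, with no treatment and no contrast between conditions. The libraries share 1 donor record but have their own biosample records, and nothing says whether they came from separate animals, so the spread between them may be technical.

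Metabotropic glutamate receptors are G protein-coupled receptors for glutamate, the main excitatory transmitter of the brain. Group I receptors such as mGluR5, the product of Grm5, act through Gq proteins and phospholipase C and are found mostly at postsynaptic membranes. Group II (Grm2, Grm3) and group III (Grm4, Grm6, Grm7, Grm8) receptors act through Gi/o proteins, lower cAMP, and often sit on axon terminals where they damp transmitter release; Grm3 is also made by astrocytes. Grm6 is known for its role in retinal ON bipolar cells, where it carries the response to photoreceptor glutamate.

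The accessible sequences that the results turn on are shown first, 5′ to 3′ on the strand of the receptor gene, from the RefSeq GRCm38.p6 assembly. They are the promoter or nearest upstream region of 6 of the genes, plus an intronic region of Grm8 that was added after its values were seen. Promoter means within 1 kb on either side of a transcription start site, and the Grm4 and Grm5 stretches lie downstream of theirs, inside the genes. Capitals mark bases inside a footprint listed in either library, and UTR bases were left out, so the Grm5 and Grm7 stretches are the parts of their promoter regions outside UTRs that held most footprints. Grm6 had no accessible region of its own to show.
Grm5, promoter (chr7:87584541-87584700, plus strand): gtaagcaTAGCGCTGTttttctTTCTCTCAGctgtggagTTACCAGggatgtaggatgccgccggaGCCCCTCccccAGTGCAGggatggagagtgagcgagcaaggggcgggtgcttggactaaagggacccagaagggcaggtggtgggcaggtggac
Grm2, 5′ flank (chr9:106664460-106664720, minus strand): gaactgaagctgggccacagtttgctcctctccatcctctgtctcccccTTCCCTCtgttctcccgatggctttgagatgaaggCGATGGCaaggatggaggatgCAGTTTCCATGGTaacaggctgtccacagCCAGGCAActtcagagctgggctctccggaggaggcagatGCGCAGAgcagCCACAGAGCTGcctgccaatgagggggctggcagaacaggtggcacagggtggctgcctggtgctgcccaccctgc
Grm3, upstream of the TSS (chr5:9725981-9726280, minus strand): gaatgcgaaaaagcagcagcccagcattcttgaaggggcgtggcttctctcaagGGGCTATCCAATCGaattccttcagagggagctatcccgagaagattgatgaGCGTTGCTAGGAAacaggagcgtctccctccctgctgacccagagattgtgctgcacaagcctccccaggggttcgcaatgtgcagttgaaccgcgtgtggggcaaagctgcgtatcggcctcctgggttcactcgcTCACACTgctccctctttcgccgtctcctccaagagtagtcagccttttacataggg
Grm4, promoter (chr17:27520632-27520807, minus strand): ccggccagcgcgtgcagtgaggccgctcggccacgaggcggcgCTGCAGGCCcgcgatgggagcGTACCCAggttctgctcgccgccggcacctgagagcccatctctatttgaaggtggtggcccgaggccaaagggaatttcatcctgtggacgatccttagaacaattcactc
Grm7, promoter (chr6:110645401-110645580, plus strand): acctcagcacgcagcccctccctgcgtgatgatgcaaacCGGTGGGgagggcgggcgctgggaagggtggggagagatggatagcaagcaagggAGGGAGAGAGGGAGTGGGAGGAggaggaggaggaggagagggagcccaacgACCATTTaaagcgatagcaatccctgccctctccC
Grm8, upstream (chr6:28135981-28136160, minus strand): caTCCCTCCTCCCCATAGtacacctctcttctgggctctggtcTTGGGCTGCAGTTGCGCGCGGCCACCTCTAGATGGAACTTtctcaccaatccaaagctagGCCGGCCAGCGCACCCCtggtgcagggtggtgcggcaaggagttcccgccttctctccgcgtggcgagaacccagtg
Grm8, intron 6 (chr6:27689521-27689780, minus strand): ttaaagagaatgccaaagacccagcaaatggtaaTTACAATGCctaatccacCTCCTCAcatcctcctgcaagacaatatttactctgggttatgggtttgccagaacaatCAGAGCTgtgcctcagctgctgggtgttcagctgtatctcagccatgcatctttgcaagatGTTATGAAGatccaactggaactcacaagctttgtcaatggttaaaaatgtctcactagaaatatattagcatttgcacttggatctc

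The promoter was accessible in both libraries at 4 of the 7 receptor genes (Grm3, Grm4, Grm5 and Grm7). It lacked a peak in both libraries at Grm2, Grm6 and Grm8. A promoter peak here is one that overlaps the 1 kb on either side of the transcription start site (TSS) of any protein-coding transcript. Among all protein-coding genes 59.0% had one in both libraries, 63.4% in replicate 1 and 60.3% in replicate 2, so the receptors' 4 of 7 was near the background. The share rose with the length of the region over all genes, and the members are best read within classes of length. Of the 3 receptors with regions over 300 kb (Grm5, Grm7 and Grm8) 2 had a promoter peak in both libraries, beside 88.1% of all such genes. Both receptors of 100 to 300 kb (Grm3 and Grm4) had one, beside 81.4%. Neither receptor under 100 kb (Grm2 and Grm6) had one, beside 54.9%.

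Where a receptor promoter was open, its peak value was low or moderate. The peak value is the signal the authors gave each peak, scaled per library on a scale that is not stated. Over the 12895 genes with a promoter peak in both libraries, the mean of the 2 libraries' highest promoter values had a median of 3.12 (quartiles 1.68 and 5.07). All 4 receptors lay below that median. Grm3 had 2.74 in replicate 1 and 1.66 in replicate 2 (mean 2.20 ± 0.764 SD, n = 2), above 34.9% of those genes. Grm7 had 1.90 and 1.28 (1.59 ± 0.440), above 23.4%. Grm5 had 1.10 and 1.55 (1.32 ± 0.319), above 18.0%. Neighbours among Grm3, Grm7 and Grm5 were not separated, since means next to each other differed by less than the larger SD and Grm7 and Grm5 changed places between the libraries. Grm3 was highest in each library, and both of its values lay above both values of Grm5. Grm4 was lowest at 0.566 and 0.733 (0.649 ± 0.118), above 3.85%, and both of its values lay below both values of the others. These Grm4 values came from peaks at different TSSs, each without a partner in the other library. Their SD is therefore not the spread of a single site. The only shared region at a Grm4 promoter had 0.495 in replicate 1 and 0.650 in replicate 2 (0.573 ± 0.109), also below both values of the others. In a bulk tissue a low value can come from few cells with an open promoter or from little opening in each cell, and these cannot be told apart.

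**Figure D1:**
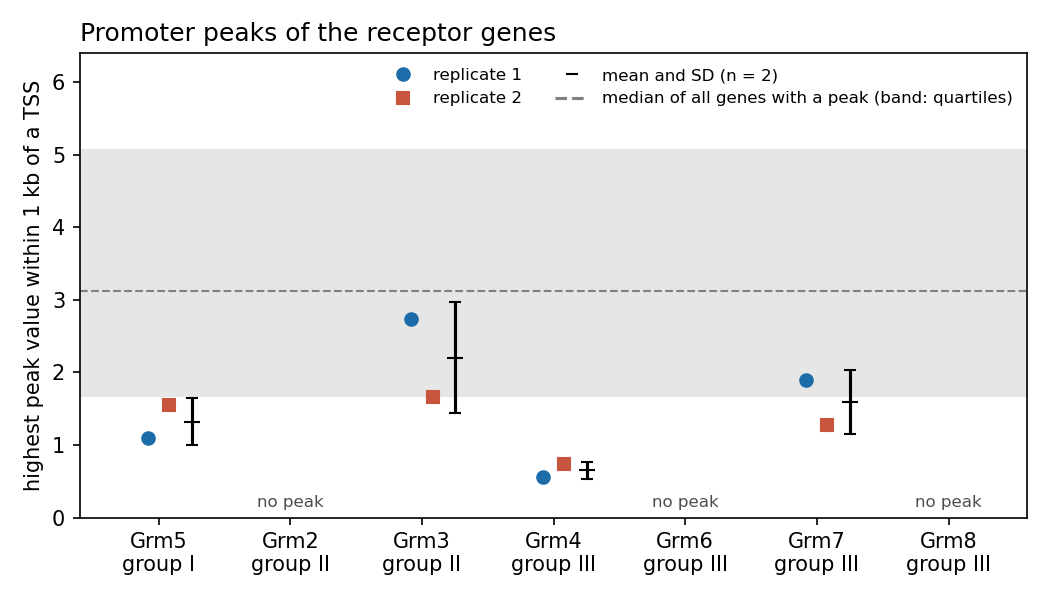
Highest peak value within 1 kb of a coding TSS (vertical axis, the authors' per-library signal) for each receptor gene, with replicate 1 as circles, replicate 2 as squares and the mean and SD (n = 2) as bars. Grm3, Grm5, Grm7 and Grm4 lie below the median of all genes with a promoter peak in both libraries (dashed, 3.12), and Grm2, Grm6 and Grm8 have no promoter peak. The Grm3 peak lies near the edge of the window, and the Grm4 values of the libraries come from different TSSs.

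Grm5, the group I receptor, lies at chr7:87584168-88134907 on the plus strand (GRCm38). Its 3 coding TSSs fall into 2 places 18.2 kb apart, and only the upstream one was accessible. At the TSS of Grm5-202 (position 87584393), replicate 1 had 2 peaks with values of 1.10 and 0.937, and replicate 2 had 1 peak of 480 bp with a value of 1.55 that overlapped both. The downstream TSSs of Grm5-204 (87602441) and Grm5-201 (87602544) had no peak in either library. The 500 bp on either side of the downstream TSSs were also poor in CpG, with observed over expected ratios of 0.123 and 0.159, while the accessible TSS had 0.424. The median over all coding TSSs was 0.523.

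Inside Grm5, accessible regions were spread over the whole gene. Of 22 peaks in replicate 1 and 12 in replicate 2, 11 and 9 were shared, where shared means an overlap of at least 1 bp with a peak of the other library. A region in intron 4 of Grm5-202, 342 kb from the 5′ end, was the strongest outside promoters by mean rank over both libraries, with 2.24 in replicate 1 and 1.86 in replicate 2 (2.05 ± 0.269). It lay higher in value than the Grm5 promoter in both libraries. The next were a region over a noncoding exon 2.30 kb from the 5′ end (2.04 and 1.52) and one in intron 6 at 443 kb (1.36 and 1.53). The intron 4 region held 5 footprints in replicate 1 and 3 in replicate 2. Of the 9 regions that both libraries shared in Grm5, 3 lay over exons, and 2 of those over coding exons, at 0.752 and 0.774 for the one 391 kb from the 5′ end and 0.663 and 0.960 for the one at 546 kb.

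Grm2, a group II receptor gene of 13.0 kb at chr9:106643095-106656082 on the minus strand, had no peak at any of its 3 coding TSSs (positions 106656082, 106656080 and 106648103). Its region nevertheless held 3 peaks, and the same 3 in each library. The first, 8.51 kb upstream of the gene and within the neighbouring gene Tex264, had 2.48 in replicate 1 and 1.60 in replicate 2 (2.04 ± 0.626). The second, by the TSS of the noncoding transcript Grm2-204, had 0.929 and 1.11 (1.02 ± 0.131). The third, in the 3′ UTR, had 2.33 and 2.16 (2.24 ± 0.120), and the antisense gene Gm28111 overlaps it. Grm2 was thus the only member with every peak shared, and also the one with fewest besides Grm6. All 3 regions held footprints in replicate 1 and 2 of them in replicate 2. In the upstream sequence the footprint CAGTTTCCATGGT of replicate 1 contains TCCATGG, which replicate 2 listed as a footprint of its own.

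Grm3, the other group II gene, lies at chr5:9485541-9725170 on the minus strand and has a single annotated transcript. Each library had 4 peaks within 1 kb of its TSS (9725170), and 3 of each were shared. The strongest did not lie on the TSS. It was centred 910.5 bp upstream, with the values of 2.74 and 1.66 given above, while the region on the TSS itself had 0.610 and 0.568 (0.589 ± 0.0302). A region 410.5 bp upstream had 0.380 and 0.660. The upstream peak held 2 footprints in each library and none of them overlapped between libraries. In its sequence, printed above, GGGCTAT was listed in replicate 1 and the adjoining CCAATCG in replicate 2.

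Within the gene, 7 intronic regions of Grm3 were shared. The strongest by mean rank was in intron 3, 184 kb from the 5′ end, with 1.48 in replicate 1 and 0.856 in replicate 2. Those in intron 1 (1.28 and 0.722, 63.1 kb) and intron 2 (1.34 and 0.578, 146 kb) came next. In 6 of the 7 the replicate 1 value was the higher one. The exception, in intron 5, was also the weakest at 0.301 and 0.444.

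Grm4, a group III gene at chr17:27422387-27521403 on the minus strand, has 5 coding TSSs in 3 places, and 2 of the places had peaks. At the most upstream TSS (Grm4-206, 27521403) the 2 libraries shared a region with 0.495 in replicate 1 and 0.650 in replicate 2 (0.573 ± 0.109). That region was centred 683.5 bp downstream of the TSS. Replicate 1 had a further peak of 0.566 there. At the TSSs of Grm4-201 and Grm4-205 (27513406 and 27513714) replicate 1 had a peak of 0.478 and replicate 2 had peaks of 0.733 and 0.671, at places that did not overlap. A count of TSSs with a peak in both libraries includes them although no region is shared. The CpG ratio was highest of all 23 coding TSSs of the members at Grm4-201 (0.952, above 95.8% of all coding TSSs). The TSSs of Grm4-202 and Grm4-207 further downstream had no peak. Outside promoters the only shared region lay over the last exon and the end of the intron before it, at 1.12 and 0.743 (0.933 ± 0.269). That was above the highest promoter peak of Grm4 in replicate 1 and close to it in replicate 2. The region held 6 footprints in replicate 1, more than any other member region there, and 4 in replicate 2.

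Grm6, at chr11:50850685-50866208 on the plus strand, had no peak within its body in either library, and none at its 2 coding TSSs (50850685 and 50850986). The peaks counted in its region were centred 9.11 and 9.51 kb upstream, at the promoter of the zinc finger gene Zfp879, where the shared region had 5.12 in replicate 1 and 4.31 in replicate 2. It was the strongest peak of any member region and belongs to the annotated start of another gene. Among 10 listed genes of the ON bipolar cell cascade, which work with Grm6 in the retina, 3 had a promoter peak in both libraries, beside 59.0% of all genes. Gnb5 (2.52 and 2.99) and Rgs7 (1.96 and 2.13), which also act in the brain, had the highest values. Rgs11 (1.09 and 1.37) was the third, and Gng13 had a promoter peak in replicate 1 only (0.592). Trpm1, the channel at the end of that cascade, and Nyx, Gpr179, Lrit3, Gnb3 and Pcp2 had no promoter peak in either library.

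Grm7, at chr6:110645581-111567230 on the plus strand, is the longest member, and its body of 922 kb held the most peaks, 38 in replicate 1 and 14 in replicate 2 over its region. Its 4 coding TSSs fall into 2 places 850 kb apart. Only the upstream pair (110645581 and 110645582) had peaks, 3 in each library. The strongest peak of replicate 1 (1.90) was centred 50.5 bp upstream and that of replicate 2 (1.28) 238.5 to 239.5 bp downstream of this pair, and the 2 peaks overlap at their edges. The antisense gene Gm20387 starts within the same region. The TSSs of the short transcripts Grm7-203 and Grm7-205 (111495715 and 111495744) had no peak, although a shared intronic region lay 9.44 kb before them. The printed stretch upstream of the TSS lies in a peak of replicate 1, and no replicate 2 peak covers it. The lack of replicate 2 footprints there can therefore not be read as a difference in footprints. The stretch held 4 footprints of replicate 1, among them AGGGAGAGAGGGAGTGGGAGGA, and none of replicate 2. Its last capital is the edge of a footprint that runs on past the stretch.

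Of the 8 intronic regions of Grm7 that were shared, 3 stood out by mean rank. They lay in intron 8 at 841 kb from the 5′ end (1.60 in replicate 1 and 1.45 in replicate 2), in intron 8 at 728 kb (1.67 and 1.35), and in intron 1 at 64.4 kb (1.84 and 1.20). The first 2 had higher replicate 2 values than the promoter. The other 5 reached at most 0.920 and 0.805, except for one in intron 2 with 1.18 and 0.423. In replicate 1, 11 of the 38 peaks of Grm7 were shared, beside 46.6% of all peaks of that library. In replicate 2, 10 of 14 were, beside 83.4%.

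Grm8, at chr6:27275119-28135178 on the minus strand, had no peak within 1 kb of any of its 5 coding TSSs, which span 8.42 kb. A strong shared region lay just outside that window. It had 2.67 in replicate 1 and 2.30 in replicate 2 (2.49 ± 0.261), was centred 892.5 bp upstream of the TSS of the noncoding transcript Grm8-206 and 1525.5 bp upstream of that of the coding transcript Grm8-202 (28134545), and was the strongest region of the receptors by mean rank after the one at Zfp879. Of the footprints in the printed stretch, TTGGGCTGCAGTTGCGCGCGGCCACC of replicate 1 (26 bp) lies inside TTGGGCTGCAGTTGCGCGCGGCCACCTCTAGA of replicate 2 (32 bp), which also overlaps the replicate 1 footprint next to it. The median length of a member footprint was 8 bp. GCCGGCCAGCGCACCCC of replicate 1 and TCCCTCCTCCCCATAG of replicate 2 overlapped no footprint of the other library. A promoter window of 2.5 kb, or the TSSs of all transcripts, would count Grm8 as open, as they would Grm2.

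Inside Grm8, 7 intronic regions were shared, and the strongest by mean rank lay in intron 8 at 727 kb (1.52 and 1.14). One in intron 6 at 446 kb differed most between the libraries. It had 2.08 in replicate 1 and 0.382 in replicate 2, a ratio of 5.44, and none of the 60487 shared peaks of replicate 1 had a higher one. It was chosen after its values were seen. Its sequence, printed last above, has 3 footprints from replicate 1 and 1 from replicate 2 that do not overlap, and holds CAGCTG at 2 places. Grm5 had a similar case in intron 3, 204 kb from the 5′ end, with 2.79 and 0.825 (ratio 3.37, exceeded by 219 of the shared peaks).

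**Figure D2:**
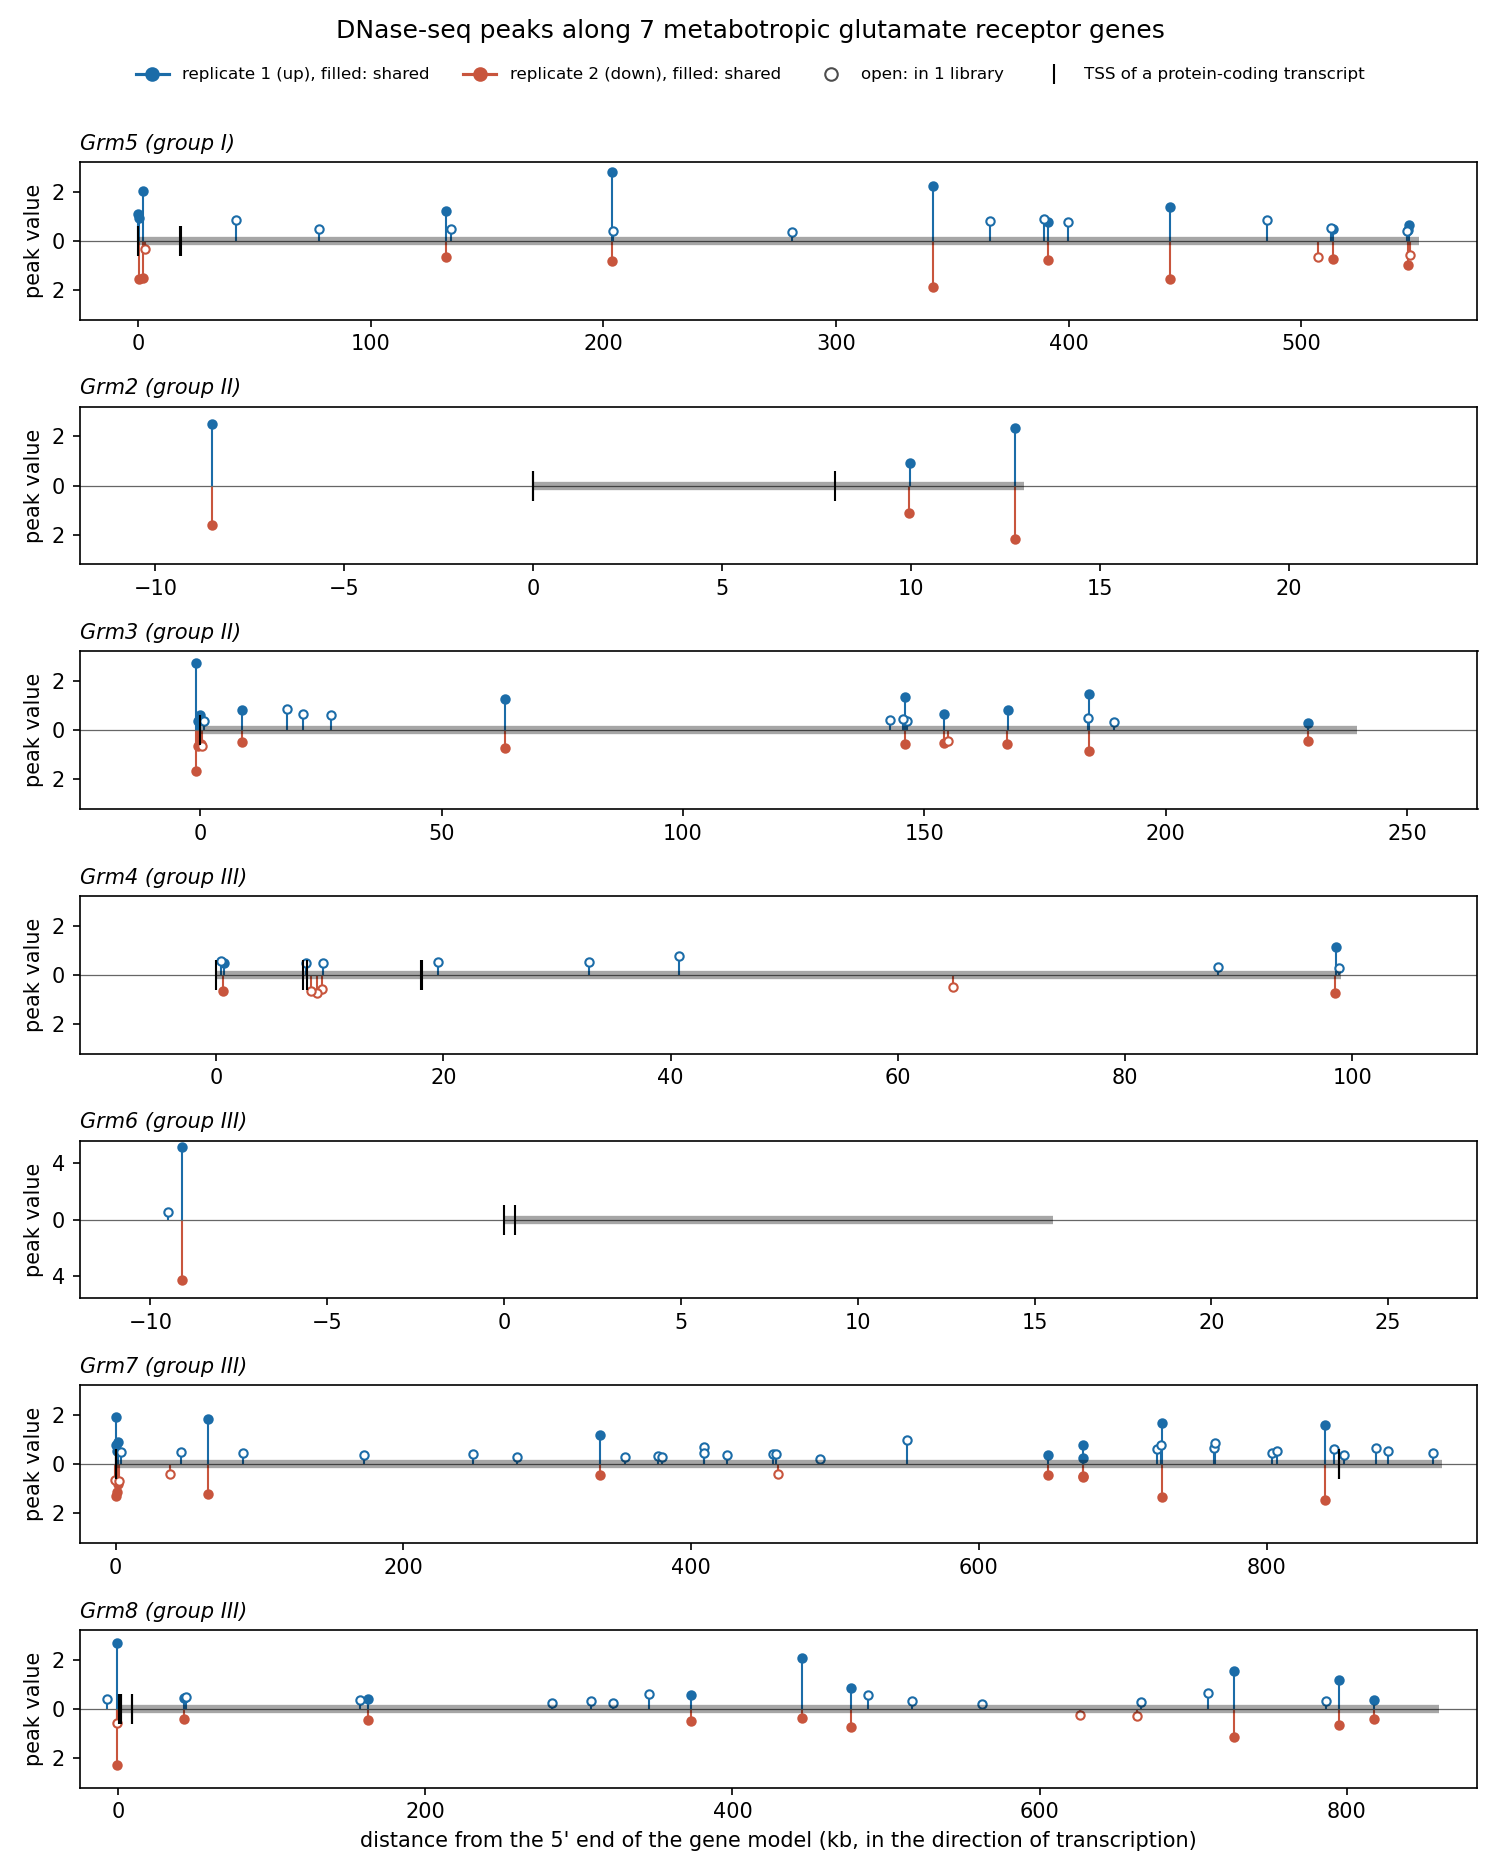
Peak value (vertical axis, the authors' per-library signal) against distance in kb from the 5′ end of each gene model, with replicate 1 drawn upward and replicate 2 downward. Filled points overlap a peak of the other library, open points do not, grey bars are gene bodies and ticks are TSSs of protein-coding transcripts. Tall filled points lie both at the 5′ ends and far inside Grm5, Grm7 and Grm8, and Grm6 has points only upstream of the gene.

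Over all 7 genes, 7 of the 23 coding TSSs had a peak in both libraries, beside 55.0% of all coding TSSs. In each gene with TSSs at several distant places and a promoter peak (Grm4, Grm5 and Grm7), the most upstream place had a peak in both libraries and the most downstream place had none in either.

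The receptor groups differed in how densely their regions held shared peaks. Group II had 4.44 shared peaks per 100 kb (13 in 292.6 kb), group I 1.93 (11 in 570.7 kb) and group III 1.16 (23 in 1976 kb). The groups hold 2, 1 and 4 genes, and genes of a group are not replicates, so no test was made. By gene the densities were 9.09 for Grm2, 3.85 for Grm3, 2.82 for Grm6, 1.93 for Grm5, 1.68 for Grm4, 1.17 for Grm7 and 1.02 for Grm8. Density fell with length over all genes, from a median of 4.29 per 100 kb in regions under 100 kb to 3.001 in those of 100 to 300 kb and 2.15 above 300 kb. Within its own class of length, Grm2 lay above 78.9% of genes and Grm3 above 64.1%. Grm5 lay above 44.7%. The group III genes Grm6, Grm7, Grm4 and Grm8 followed at 36.4%, 20.9%, 20.4% and 16.7%, so the order of the groups was the same there. The order also held in each library alone, at 7.52, 3.85 and 3.64 peaks per 100 kb for groups II, I and III in replicate 1 and 5.13, 2.10 and 1.67 in replicate 2. It did not hold gene by gene: Grm6, with its single shared peak at Zfp879, lay above Grm5, and Grm4 had 8.40 peaks per 100 kb in replicate 1 against 7.32 for Grm3, with 2 of its 10 peaks shared. With the authors' shorter peak lists the shared peaks of the 7 regions fell from 47 to 23, and the densities were 1.71, 1.23 and 0.557 for groups II, I and III.

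**Figure D3:**
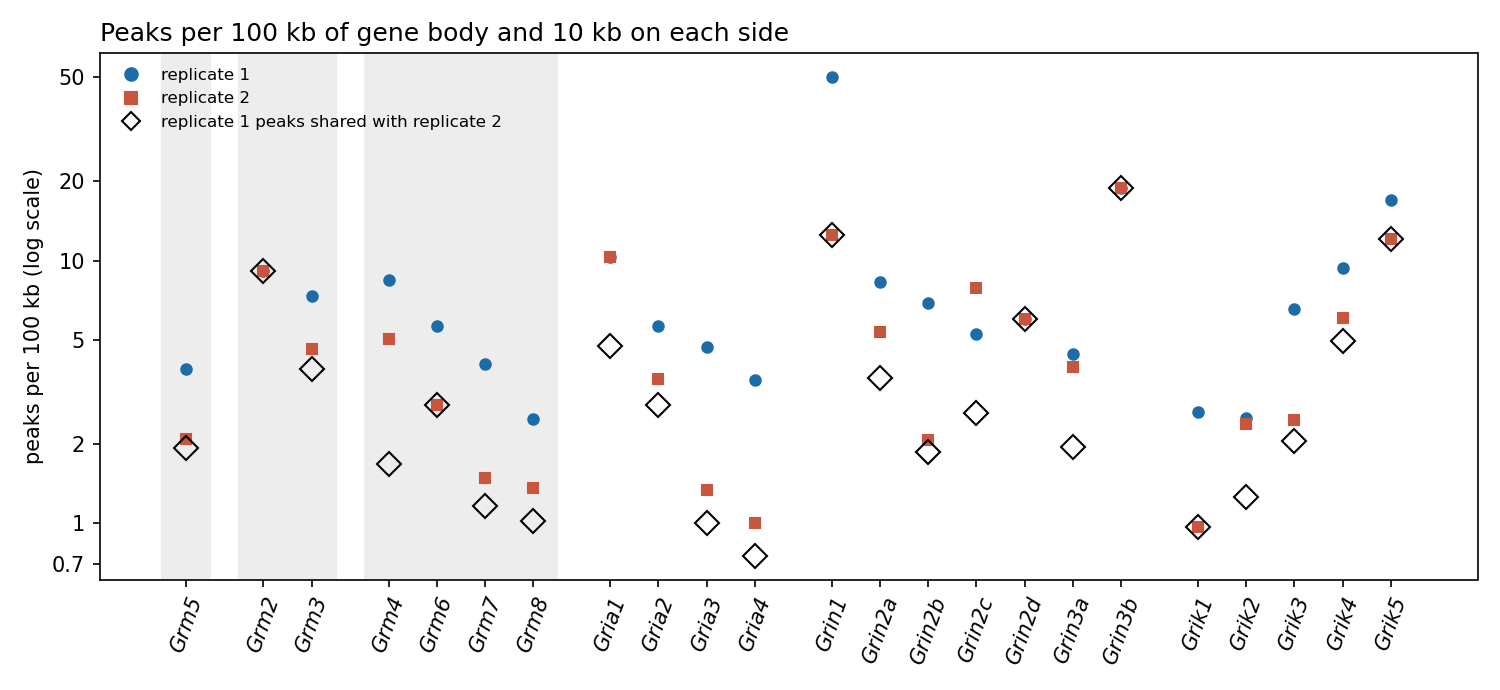
Peaks per 100 kb (log axis) over the gene body and 10 kb on each side, in replicate 1 (circles), replicate 2 (squares) and for replicate 1 peaks shared with replicate 2 (diamonds). The receptor genes are on grey, from group I to group III, and the subunits of the AMPA, NMDA and kainate receptors are on white; shared densities of the receptors run from 1.02 (Grm8) to 9.09 (Grm2).

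Outside promoters of any protein-coding gene, 6 of the 7 members had at least 1 shared peak, all but Grm6, and the members had 37 such peaks. The share of all genes with one was 52.3%, but 18692 of the 21866 have regions under 100 kb, among members only Grm2 and Grm6. Within its class of length, the density of such peaks lay above 96.6% of genes in Grm2, 69.9% in Grm3 and 49.0% in Grm5. For Grm8, Grm4, Grm7 and Grm6 it lay above 29.4%, 25.6%, 22.0% and 0%. Of the 43 regions shared by both libraries, 27 were intronic, 6 lay over exons, and 6 at members' own promoters. The shared intronic regions had mean values from 0.362 to 2.05 with a median of 0.862. By gene the median was highest in Grm5 (1.44, 5 regions), then Grm7 (0.831, 8), Grm8 (0.786, 7) and Grm3 (0.681, 7). Over the 4 receptors of 200 kb or more, 26.0% of replicate 1 peaks and 33.3% of replicate 2 peaks in the gene body fell in the 25% of its length nearest the 5′ end. All 996 protein-coding genes that long had 28.5% and 33.2%.

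Replication differed between the libraries. Of the 116 peaks of replicate 1 in the receptor regions, 47 were shared (40.5%, 95% Wilson interval 32.0 to 49.6), beside 46.6% of all replicate 1 peaks. Of the 60 peaks of replicate 2, 44 were shared (73.3%, 61.0 to 82.9), beside 83.4%. Such intervals cover counting error only. With replicate 1 limited to its strongest peaks, as many as replicate 2 listed, 69.4% of its peaks in the receptor regions were shared. The share of all its peaks under that limit is not given here, so 69.4% has no background beside it. In promoters 10 of 14 member peaks of replicate 1 were shared, beside 74.2% of all promoter peaks. Outside promoters 37 of 102 were (36.3%, 27.6 to 45.9), beside 39.8%. The matching shares in replicate 2 were 8 of 12, beside 83.9%, and 36 of 48 (75%, 61.2 to 85.1), beside 83.2%. Outside promoters, group III had the lowest share in replicate 1, 18 of 64 (28.1%, 18.6 to 40.1), with 9 of 20 in group I (45.0%, 25.8 to 65.8) and 10 of 18 in group II (55.6%, 33.7 to 75.4). The intervals of groups II and III overlapped.

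Peaks seen once were weak. In replicate 1 the 69 member peaks without a partner had a median of 0.469 and a highest value of 0.999, in intron 4 of Grm7. The next, at 0.875 each, lay in intron 1 of Grm3 and intron 4 of Grm5. In replicate 2 the 16 without a partner had a median of 0.568 and reached 0.733 and 0.671 at Grm4 TSSs and 0.702 in intron 1 of Grm7. The shared ones had medians of 0.937 and 0.733. Over all peaks of replicates 1 and 2, those without a partner had medians of 0.504 and 0.516, and shared ones 1.18 and 0.991. The lower values of peaks seen once were thus not particular to the receptors. Of the 69 seen only in replicate 1, 2 held a base with a listed FDR under 0.05 in replicate 2 (2.90%, beside 9.00% of all such peaks). Of the 16 seen only in replicate 2, 3 held one in replicate 1 (18.8%, beside 21.4%).

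In the regions that both libraries shared, 30 of 43 had the higher value in replicate 1 (69.8%), with a median ratio of replicate 1 to replicate 2 of 1.19. For all shared peaks these were 65.5% and 1.16. Among the promoters of Grm3, Grm4, Grm5 and Grm7 the ratio was above 1 at Grm3 (1.65) and Grm7 (1.49) and below 1 at Grm5 (0.708) and at the shared region of Grm4 (0.762).

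**Figure D4:**
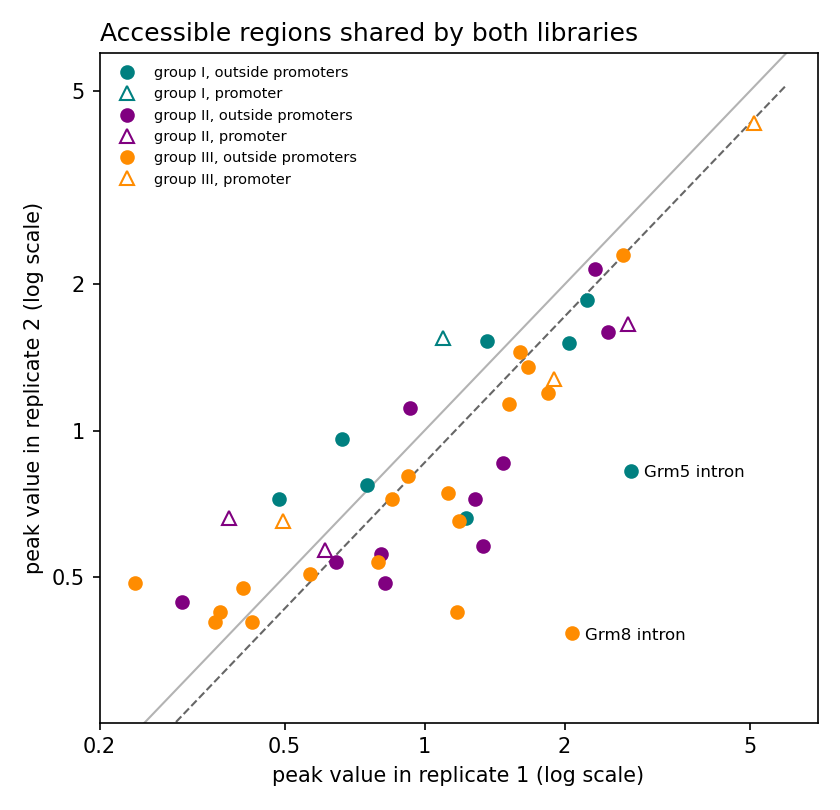
Peak values in replicate 1 and replicate 2 (both axes logarithmic) for the 43 regions of the receptor genes that both libraries shared, coloured by receptor group, with promoters as open triangles. The solid line marks equal values and the dashed line the median ratio of all shared peaks (1.16); the intronic regions of Grm8 (ratio 5.44) and Grm5 (3.37) lie furthest below it.

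Footprints were listed in most of the receptors' peaks. Of the member peaks 62.9% (53.9 to 71.2) held one in replicate 1 and 65.0% (52.4 to 75.8) in replicate 2, beside 72.9% and 69.9% of all peaks. The receptors' peaks also had lower values, with medians of 0.548 and 0.655 beside 0.699 and 0.867 for all peaks, and the part of this in the footprint share was not tested. Grm5 had footprints in 16 of 22 and 11 of 12 peaks, and Grm7 in 22 of 38 and 6 of 14. The 7 regions held 163 footprints in replicate 1 and 89 in replicate 2. Of these, 38 (23.3%) and 34 (38.2%) overlapped a footprint of the other library, beside 25.8% and 52.0% of all footprints.

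The 16 short motifs were searched on both strands in the 200 bp around the middle of each shared region. Member windows were centred on regions merged over both libraries, and those of all shared peaks on the replicate 1 peak, so the windows are not placed alike. Outside promoters, 16 of 36 member regions held CAGATG, the E-box of Neurod-type bHLH factors (44.4%, beside 31.2% of the 41396 shared peaks outside promoters). TTGGCA, bound by nuclear factor I (NFI) proteins, was in 14 (38.9%, beside 21.9%), CAGCTG, another E-box, in 9 (25%, beside 20.3%), and ACAAAG (SOX) in 7 (19.4%, beside 15.1%). TGANTCA (AP-1) was in 3 (8.33%, beside 10.5%). Of the 7 regions at members' own or another gene's promoters, none held GGGCGG (SP/KLF) in that window, while 52.9% of all shared promoter peaks did. It occurs in the stretches of Grm5 and Grm7 printed above, which the window missed, as their merged regions are 580 and 1000 bp wide. The absence can therefore not be set against that share. Such matches describe letters only. The member regions outside promoters had a median GC content of 48.5%, beside 50.5%, and those at promoters 63.5%, beside 64%.

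Listed partners of the receptors at the synapse are given for comparison, beside the 59.0% of all genes. That share was 54.9% in regions under 100 kb, 81.4% at 100 to 300 kb and 88.1% above. All AMPA genes, and all kainate genes but Grik5, have regions over 100 kb, so their counts are best read beside the higher shares. The ionotropic receptor subunits were open at the promoter in both libraries in 4 of 4 genes for AMPA, 5 of 7 for NMDA and 4 of 5 for kainate receptors. By the mean of both libraries the highest were Gria2 at 3.73 in replicate 1 and 3.58 in replicate 2, Grin1 at 3.14 and 2.78, and Grik4 at 2.66 and 2.37, although Grik2 lay above Grik4 in replicate 2. Their shared peaks per 100 kb had medians of 1.92, 3.57 and 2.05, beside 1.93 for the 7 metabotropic receptors. These medians are not matched for length, since the lists' median regions were 318, 66.5 and 414 kb and density fell with length over all genes. Of 16 genes of group I signalling (Gq proteins, phospholipases, Homer and Shank scaffolds) 15 had a promoter peak in both libraries, led by Gna11 (11.3 and 8.51), which encodes a Gq-class subunit, and Cyth2 (10.2 and 5.13) by the mean of both libraries. In replicate 2 Homer1 (5.71) and Ncdn (5.54) lay above Cyth2. Of 17 genes of group II and III signalling (Gi/o proteins, adenylyl cyclases, GIRK channels, RGS proteins and Elfn adhesion partners) 16 did, led by Gnaz (8.87 and 6.38) and Gnai2 (5.37 and 3.86).

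The replicate 1 library listed 129779 peaks and replicate 2 71895, covering 24.5 and 14.6 Mb. The marker counts below stand beside 59.0% of all genes with a promoter peak in both libraries, 63.4% in replicate 1 and 60.3% in replicate 2. All 8 listed markers of hippocampal excitatory neurons had a promoter peak in both libraries, led by Zbtb18 (8.35 in replicate 1 and 5.21 in replicate 2). GABAergic interneuron markers did at 2 of 7 genes, with none in either library at Gad2, Lhx6, Slc32a1 and Vip, and oligodendrocyte markers at 4 of 7. Astrocyte markers did at 4 of 7, led by Sox9, with none at Gfap, and their summed promoter value was 8.98 in replicate 1 and 4.69 in replicate 2. The 4 of 7 (57.1%) of oligodendrocyte and of astrocyte markers lay near the share of all genes. Microglial markers had a promoter peak at 5 of 7 genes in replicate 1 (sum 3.02) and at 0 of 7 in replicate 2, with none in either at Aif1 and Cx3cr1. Those replicate 1 values were low, from 0.460 to 0.769. Endothelial and pericyte markers had 4 of 7 and 1 of 7 (sums 1.96 and 0.578), and choroid plexus markers 1 of 5 in each. The part of these cell types in the differences between the libraries at the receptor genes was not tested.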

How the data were processed

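DNase-seq was done in 2 libraries of 1 group, grouped by the labels. The authors listed peaks and footprints for each library by itself on mm10 (GRCm38), per the descriptions beside the files; the aligner and callers: not given in the sources used here. The peak value is the authors' deposited signal. Below 1 it was a whole multiple of 0.008843 in replicate 1 and 0.0103184 in replicate 2 (100% of values within 0.05 steps), so each library has its own scale, on which every ratio between them depends. The authors' deposited base lists give FDR values (q-values) and name only bases under 0.05. The value of 0.01 on every line of the footprint lists, read as an FDR threshold, was not used. The mice were F1 hybrids and the build is C57BL/6J; no source used here says how reads of CAST/EiJ alleles were treated.

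The longer of each library's 2 peak lists was used. Genes, transcripts and TSSs came from GENCODE M21, protein-coding genes with a protein-coding transcript only, and sequence from RefSeq GRCm38.p6. A promoter was 1 kb on either side of a coding TSS, sharing was an overlap of at least 1 bp, and overlapping peaks of both libraries were merged into regions. Peaks at the start of a member's noncoding transcript count as outside promoters. Coordinates are 1-based. Shares carry 95% Wilson intervals. The number of reads per library is not given in these files; the peak numbers show replicate 1 to be listed more fully. The motifs searched, on both strands, were CAGATG for a Neurod-type E-box, CAGCTG for a second kind of E-box, CRE (TGACGTCA), AP-1 (TGANTCA), EGR (GCGTGGGCG), SP/KLF (GGGCGG), NRF1 (GCGCATGC), ETS (CCGGAAGT), YY1 (AAGATGGCG), NFI (TTGGCA), RFX (GTTGCCATG), the CTCF core (CNAGGGGGC), REST (TTCAGCACC), MEF2 (CTATTTATA), SOX (ACAAAG) and the box bound by TBP (TATAAA). Those of EGR and SP/KLF can overlap.

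Named were all 7 members, every peak at their coding TSSs, their 3 shared regions outside promoters with the highest mean rank, the 3 strongest peaks seen in 1 library only per library, and, in each other list, up to 2 genes with the highest promoter values and 2 without a promoter peak; a few further regions were named after their values were seen, among them the weaker shared regions. Members, lists and tests were chosen with earlier results of these data known. With 1 group of 2 libraries no test was made. The scripts used Python 3.11.15, pandas 2.3.3, statsmodels 0.14.6 and matplotlib 3.10.9. Only the search for overlapping intervals was tested on simulated data. Alternatives were the shorter lists, equal numbers of peaks, each library alone, a 50% reciprocal overlap, other flanks, and other promoter windows and TSSs.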

Additional observations from a re-analysis of the deposited data

How the results depend on the processing

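Of 47 alternative values, 36 stayed near the reported one and 11 did not, where near means within 1.5 times for a count, within 1 SD of the libraries for a density or the share with a footprint, and within the 95% interval for the share of peaks shared. For the densities that SD is wide: group III went from 1.16 to 0.557 per 100 kb with the shorter lists and 0.759 with equal numbers of peaks, and group I from 1.93 to 1.23 with the shorter lists, each by more than 1.5 times but within it. The order of groups II, I and III in shared peaks per 100 kb was the same in each of the 7 alternatives. With the shorter peak lists, shared peaks fell from 47 to 23 and group II from 4.44 to 1.71 per 100 kb, and the share of peaks with a footprint rose from 64.0% (mean of both libraries) to 87.2%. With equal numbers of peaks it was 78.4%, and 69.4% of replicate 1 peaks in the receptor regions were shared in place of 40.5%. Neither share is given here for all peaks at equal numbers. The footprint share was 62.3% with no flank and 66.4% with a flank of 50 kb. In 1 library alone, where every peak counts, there were 60 to 116 peaks, at 2.10 to 3.85 per 100 kb in group I, 5.13 to 7.52 in group II and 1.67 to 3.64 in group III; 62.9% to 65.0% held a footprint. The number of members with a promoter peak was 3 with the shorter lists or equal numbers of peaks, 5 at the 5′ end of the gene model and 6 with a window of 2.5 kb or the TSSs of all transcripts, in place of 4, so that Grm2 and Grm8 are counted or not by the window. No paired analysis was possible because there is 1 group. The unequal numbers of peaks limit what can be said of peaks seen only in replicate 1, and 2 libraries limit every SD.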

Other observations

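Of the 43 shared regions, 6 lay over exons, and in 3 genes (Grm4, Grm5 and Grm8) these included coding sequence. Peaks over coding exons that 1 library alone listed were also found in 2 further genes, Grm3 (0.423 in replicate 2) and Grm7 (0.389 in replicate 1). In Grm5 the coding regions 391 and 546 kb from the 5′ end held 2 and 5 footprints in replicate 1 and as many in replicate 2. In Grm8 a coding region 373 kb from the 5′ end had 0.566 in replicate 1 and 0.506 in replicate 2. In Grm4 the region at the last exon spans the end of the coding sequence and the UTR.

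Both genes next to Grm6 and the one upstream of Grm2 had open promoters. Zfp454, downstream of Grm6, had 5.72 in replicate 1 and 4.15 in replicate 2 at its TSS, and Tex264, upstream of Grm2, had 2.54 and 2.41. Zfp879, upstream of Grm6, is described above.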
